A study of Pinellia ternata with 6 samples.

Results

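Nitrate, nitrogen and phosphate nutrition was followed through 5 unigenes of Pinellia ternata, out of 62591 unigenes in the expression table. They were TRINITY_DN9981_c0_g1 and TRINITY_DN786_c0_g1 from the study's list for nitrate transport, TRINITY_DN18363_c0_g1 and TRINITY_DN1749_c0_g1 from its list for nitrogen metabolism, and TRINITY_DN1882_c0_g1 from its list for the cellular response to phosphate starvation. A unigene is a group of transcripts that a de novo assembly treats as one gene, and the names are shortened below to the part after TRINITY. The lists held only unigenes that the study had called as different between the T2 line and the T2Plus line in these same samples. The difference between the lines therefore chose all 5, and it is described here without a test. The sources used here give none of the 5 a protein name, so only the process of its list can be stated for each.

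Plants take up nitrate through transporters in the plasma membrane, reduce it to ammonium by way of nitrite, and fix the ammonium into amino acids, starting with glutamine and glutamate. Phosphate is taken up by transporters of its own, and when it runs short plants switch on a starvation response that raises uptake, releases phosphate from organic compounds and remodels membrane lipids. Nitrate and phosphate signalling are linked in plants, so that the supply of one affects the response to the other.

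RNA-seq was run on whole seedlings of 2 lines collected at 30 days, with 3 samples of each. The octoploid T2 line (8x, 2n = 104) goes back to a single plant of Heze in Shandong, and colchicine was used to make the T2Plus line (16x, 2n = 208) from it, so each ploidy is represented by 1 line. No other treatment or age is given in the labels. The labels state that 5 seedlings of a group were combined for grinding, and although the study calls the samples biological replicates, it is not said whether each had a mix of its own, so a p-value here tells only of the spread among these samples, part of which may be technical. Fewer cells of a type and less RNA per cell cannot be told apart in such bulk values.

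Values are in FPKM, fragments scaled to the length of the transcript and the size of the library. The isoforms of a unigene that are in the table were summed. Differences are given on the log2(FPKM + 1) scale as the T2Plus line minus the T2 line, a scale on which changes of weakly expressed unigenes come out too small. The table summed to 527915 to 626556 FPKM per sample. T2 line replicate 2 stood apart from the other libraries. It had 23270 unigenes at 1 FPKM or more against 27546 to 30755 elsewhere, its median log2 value was 1.91 against 2.22 to 2.31, and the top 100 unigenes took 19.5% of its summed FPKM against 14.7 to 15.8%. Of 48 unigenes annotated as chloroplast proteins, 27 were in the table and all 27 were above 0 in some sample. They were chosen by protein name, which does not by itself mark green tissue. Their summed level was 4210 to 5530 FPKM in the T2 line and 2980 to 3600 FPKM in the T2Plus line. By the rule for calls given below, 0 of 25 tested were called up and 4 were called down. Over all unigenes tested, 7.22% were called up and 6.30% down. Of 66 unigenes whose best protein match lay outside the green plants, 43 were in the table and 38 were above 0. These summed to 851 to 949 FPKM in the T2 line and to 856 to 872 FPKM in the T2Plus line. Of the 37 tested, 0 were called up and 1 was called down. The calls in both lists are given as a description. Whether the chloroplast difference had a part in the results below was not tested.

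All 5 unigenes differed between the lines by more than the spread of the samples, and they split by direction, with 2 higher and 3 lower in the T2Plus line. Each of the nitrate transport and nitrogen metabolism pairs held 1 unigene of either direction, and the phosphate starvation unigene was lower. A unigene was called where its adjusted p was 0.05 or less and its change 2-fold or more, and by this rule 2061 of 28536 unigenes tested were up (7.22%) and 1799 were down (6.30%). Groups without overlap were found in 19.5% of the unigenes tested with the T2Plus line higher and in 16.4% with the T2Plus line lower, 36.0% in all. Nothing is read from the members against these shares, because the same contrast chose them.

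**Figure D1:**
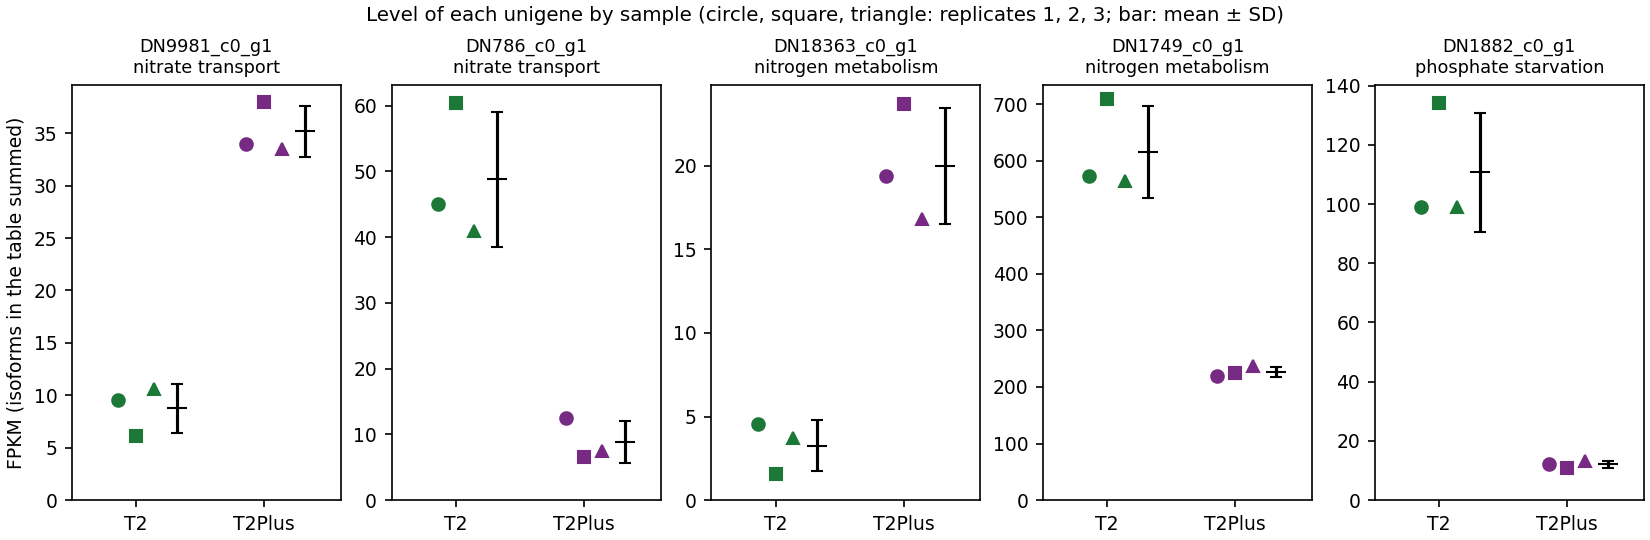
The level of each unigene in FPKM (vertical axis, starting at 0 in each panel) in the T2 line and the T2Plus line, with circles, squares and triangles for replicates 1, 2 and 3 and a bar for the mean ± SD of 3 samples. In no panel do the lines overlap, and the square of the T2 line, replicate 2, is the lowest of its line for the 2 rising unigenes and the highest for the 3 falling ones.

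For nitrate transport, the rising unigene was DN9981_c0_g1. It was at 9.6, 6.14 and 10.6 FPKM in replicates 1 to 3 of the T2 line, and at 34.0, 38.0 and 33.5 FPKM in those of the T2Plus line. Every sample of the T2Plus line lay above every sample of the T2 line, by a wide gap. The means were 8.77 ± 2.33 and 35.2 ± 2.47 FPKM (SD, n = 3 each), a 4.01-fold higher level and a log2 difference of 1.92. Ranks, here and below, are among the unigenes in the table, which holds a part of the assembly. By rank within a sample, DN9981_c0_g1 moved from places 9317 to 11734 in the T2 line to places 2944 to 3366 in the T2Plus line. Of the unigenes tested, 4.92% had a larger log2 rise.

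The falling unigene of the same process was DN786_c0_g1, which was the more abundant of the pair in the T2 line. Its level was 45.1, 60.4 and 40.9 FPKM in the T2 line and 12.5, 6.55 and 7.52 FPKM in the T2Plus line. The groups were far apart, although replicate 1 of the T2Plus line was clearly above the other two. The means were 48.8 ± 10.3 and 8.84 ± 3.17 FPKM (SD, n = 3 each), which is 5.52-fold lower in the T2Plus line and a log2 difference of -2.37. Its rank went from places 2022 to 2906 to places 8214 to 12557, and 2.21% of the unigenes tested had a larger fall.

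The pair exchanged places between the lines. DN9981_c0_g1 stood at 0.213, 0.102 and 0.258 of the level of DN786_c0_g1 in the T2 line, and at 2.73, 5.8 and 4.46 times that level in the T2Plus line. Thus DN786_c0_g1 was the higher of the pair in each T2 line sample and DN9981_c0_g1 in each T2Plus line sample. FPKM is a value per length, so levels of different unigenes can be set side by side, within the limits of assembled transcripts that may be incomplete.

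DN786_c0_g1 was the only one of the 5 with more than 1 isoform above 0 in the table. Isoform i12 was at 38.6, 56.2 and 40.9 FPKM in the T2 line and at 7.02, 5.07 and 5.77 FPKM in the T2Plus line. Isoform i4 was at 6.56, 4.22 and 0 FPKM in the T2 line and at 5.44, 1.48 and 1.75 FPKM in the T2Plus line. The fall of the unigene thus lay in i12, whose groups were far apart (log2 difference -2.72), while the values of i4 overlapped between the lines (log2 difference 0.05).

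The share of i12 in the sum was 85.5, 93.0 and 100% in the T2 line and 56.4, 77.4 and 76.8% in the T2Plus line. The share was lower in every T2Plus line sample, by 22.7 percentage points between the means of 92.8 ± 7.27% and 70.2 ± 12.0% (SD, n = 3 each). An exact two-sided permutation test of the share gave p = 0.1, the smallest that 3 samples against 3 can give, so no difference in share can be called. The isoform numbers of this unigene reach 12, and isoforms other than i12 and i4 were not analysed here. Both the sum and the shares thus cover a part of the unigene. Each of the other members had its level from a single isoform. These were i6 for DN9981_c0_g1, i2 for DN18363_c0_g1, i9 for DN1749_c0_g1 and i5 for DN1882_c0_g1. Any isoforms of theirs outside the table were not analysed, so their levels and ratios may also cover a part of the unigene.

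**Figure D2:**
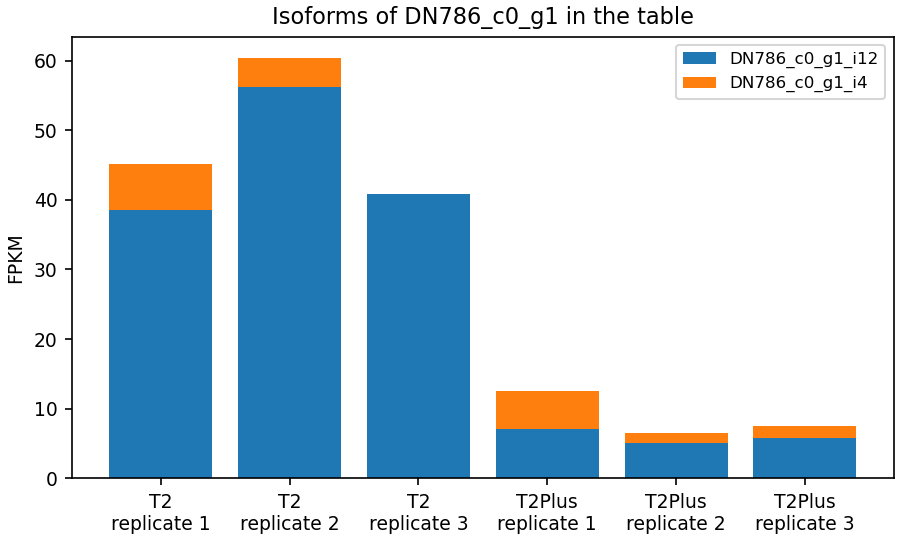
Stacked bars of the FPKM of isoforms i12 and i4 of DN786_c0_g1 in each of the 6 samples. The i12 part falls from 38.6 to 56.2 FPKM in the T2 line to 5.07 to 7.02 FPKM in the T2Plus line, whereas i4 is at most 6.56 FPKM anywhere and is listed at 0 in T2 line replicate 3.

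For nitrogen metabolism, the rising unigene was DN18363_c0_g1, the weakest of the 5 in the T2 line. It was at 4.53, 1.54 and 3.73 FPKM in the T2 line and at 19.4, 23.7 and 16.8 FPKM in the T2Plus line. All 3 samples of the T2Plus line were above the T2 line, within which replicate 2 was low. The means were 3.27 ± 1.55 and 20.0 ± 3.49 FPKM (SD, n = 3 each), a 6.12-fold higher level and a log2 difference of 2.36. Its rank rose from places 15188 to 20843 to places 4716 to 6312, and 2.79% of the unigenes tested had a larger rise.

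The falling unigene of nitrogen metabolism, DN1749_c0_g1, was by far the most abundant of the 5. Its level was 573, 709 and 564 FPKM in the T2 line and 219, 224 and 237 FPKM in the T2Plus line. The samples of the T2Plus line were close to each other and all well below the T2 line. The means were 615 ± 81.6 and 227 ± 9.11 FPKM (SD, n = 3 each), 2.72-fold lower in the T2Plus line, with a log2 difference of -1.43. It remained among the highest unigenes in the table in both lines, at places 64 to 78 in the T2 line and 219 to 222 in the T2Plus line. A larger log2 fall was found in 7.17% of the unigenes tested, so its change was the smallest of the 5 on this scale and the largest in FPKM. Its other isoform in the table, i8, was listed at 0 in every sample, and the whole level in the table came from i9.

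The 2 nitrogen metabolism unigenes drew closer without changing their order. DN1749_c0_g1 was 126, 461 and 151 times as high as DN18363_c0_g1 in the samples of the T2 line, and 11.3, 9.45 and 14.1 times as high in those of the T2Plus line. The largest ratio, in T2 line replicate 2, rested on the low value of DN18363_c0_g1 there.

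For the response to phosphate starvation, DN1882_c0_g1 showed the largest fold change of the 5. It was at 99.0, 134 and 99.1 FPKM in the T2 line and at 12.3, 10.7 and 13.2 FPKM in the T2Plus line. Replicates 1 and 3 of the T2 line were nearly equal, and each T2Plus line sample was far below them. The means were 111 ± 20.4 and 12.1 ± 1.28 FPKM (SD, n = 3 each), which is 9.19-fold lower in the T2Plus line and a log2 difference of -3.09. Its rank fell from places 789 to 971 to places 7616 to 8931, and 0.96% of the unigenes tested had a larger fall. Another unigene of the same Trinity cluster number, DN1882_c4_g1, was in the table and was listed at 0 in all 6 samples, so no value was available to compare. The other 4 unigenes had no such relative in the table.

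**Figure D3:**
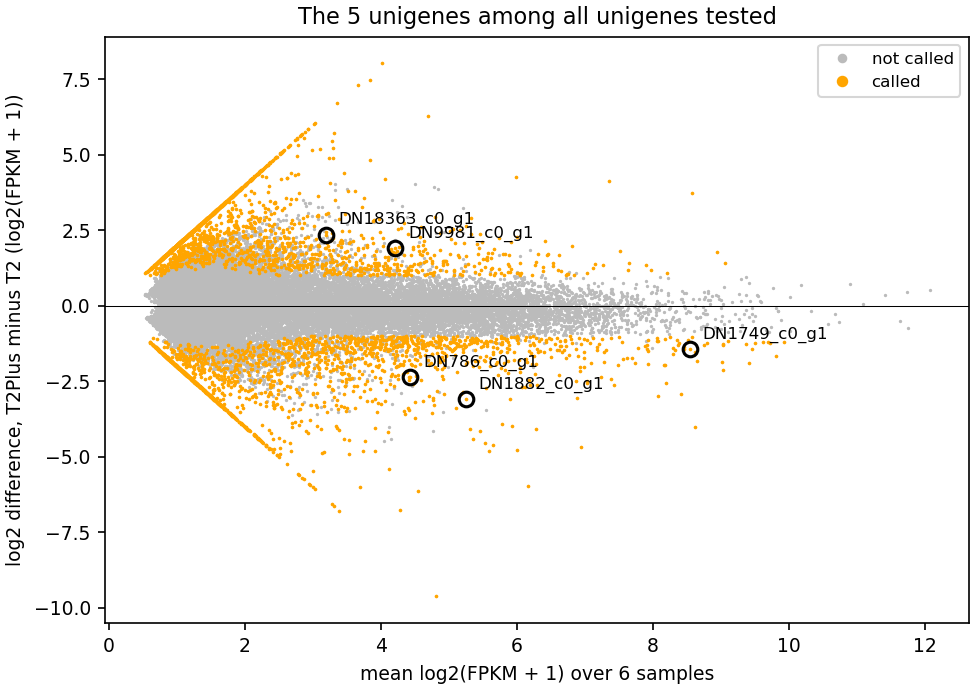
The log2 difference (T2Plus line minus T2 line, on log2(FPKM + 1)) against the mean log2 level over 6 samples for the 28536 unigenes tested, with called unigenes in orange and the 5 nutrition unigenes circled. DN18363_c0_g1 and DN9981_c0_g1 lie at 2.36 and 1.92 above the line at 0, DN1749_c0_g1 lies far to the right at -1.43, and DN1882_c0_g1 is the lowest of the 5 at -3.09.

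The order of levels differed between the lines. In the T2 line it ran from DN1749_c0_g1 through DN1882_c0_g1, DN786_c0_g1 and DN9981_c0_g1 to DN18363_c0_g1, and no neighbours in this order overlapped. In the T2Plus line DN1749_c0_g1 was followed by DN9981_c0_g1, DN18363_c0_g1, DN1882_c0_g1 and DN786_c0_g1. Here only the last pair overlapped, at 10.7 to 13.2 FPKM for DN1882_c0_g1 and 6.55 to 12.5 FPKM for DN786_c0_g1, so their order is not set by these samples. The 2 rising unigenes had moved from the bottom of the order to places next to the top.

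Because DN1749_c0_g1 made up 77.8 to 78.5% of the summed level of the 5 in the T2 line and 73.7 to 76.9% in the T2Plus line, the sum followed it. The sum was 731, 912 and 718 FPKM in the T2 line and 297, 303 and 308 FPKM in the T2Plus line. As a share of the summed FPKM of the unigenes in the table this was 0.127 to 0.146% and 0.0555 to 0.0575%. The 3 falling unigenes did not move in proportion, since DN1749_c0_g1 was 5.79, 5.28 and 5.69 times as high as DN1882_c0_g1 in the T2 line and 17.9, 20.9 and 17.9 times as high in the T2Plus line. The 2 rising unigenes stayed closer to one another, with DN18363_c0_g1 at 0.472, 0.251 and 0.352 of DN9981_c0_g1 in the T2 line and at 0.569, 0.624 and 0.503 in the T2Plus line.

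**Figure D4:**
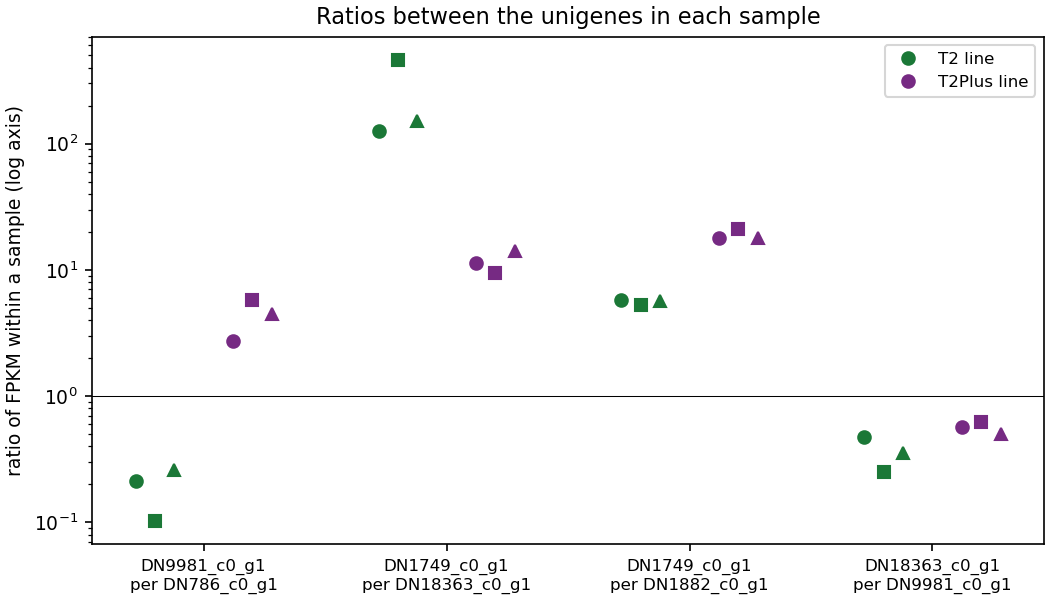
Ratios of FPKM between pairs of the unigenes within each sample (log axis, with a line at 1), in green for the T2 line and purple for the T2Plus line, with circles, squares and triangles for replicates 1, 2 and 3. The ratio of DN9981_c0_g1 to DN786_c0_g1 crosses 1, from 0.102 to 0.258 in the T2 line to 2.73 to 5.8 in the T2Plus line, and that of DN18363_c0_g1 to DN9981_c0_g1 stays below 1 in all 6 samples.

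Replicate spread was larger in the T2 line for 4 of the 5. The coefficient of variation in the T2 line was 26.6% for DN9981_c0_g1, 21.0% for DN786_c0_g1, 47.4% for DN18363_c0_g1, 13.3% for DN1749_c0_g1 and 18.4% for DN1882_c0_g1, beside a median of 49.6% over the unigenes tested. In the T2Plus line the values in the same order were 7.03, 35.9, 17.5, 4.02 and 10.6%, beside a median of 34.0%. DN786_c0_g1 was the exception, being more variable in the T2Plus line. The medians run over tested unigenes of all levels and are not matched to the levels of the members.

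In each of the 5, T2 line replicate 2 was the T2 line sample farthest from the T2Plus line. Relative to the mean of replicates 1 and 3 it stood at 0.609 for DN9981_c0_g1 and 0.373 for DN18363_c0_g1, the rising unigenes. For the falling unigenes it stood at 1.4 for DN786_c0_g1, 1.25 for DN1749_c0_g1 and 1.36 for DN1882_c0_g1. Over all unigenes tested, this replicate was below the mean log2 level of the other T2 line replicates in 53.9% and above that mean in 42.5%. In the rest it equalled that mean. Among unigenes called up without this replicate, it was below that mean in 20.6%, above it in 35.1% and equal to it in the rest. Among those called down without this replicate, it was below in 49.9% and above in 50.1%. Without it, the log2 differences were 1.7 for DN9981_c0_g1, -2.21 for DN786_c0_g1, 2.02 for DN18363_c0_g1, -1.32 for DN1749_c0_g1 and -2.94 for DN1882_c0_g1, each smaller than with it and in the same direction. The median over all unigenes tested moved from 0.10 to 0.014 on leaving it out.

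The other unigenes of the same lists were described in the same way, and their counts are not independent evidence of direction, since the study drew the lists from calls on these samples. Of 7 unigenes listed for nitrate transport, 5 were in the table, with 2 called up, 2 called down and 1 not called. DN25443_c0_g1 was at 3.91, 2.96 and 3.46 FPKM in the T2 line and at 9.08, 10.2 and 10.5 FPKM in the T2Plus line, and was called up (log2 difference 1.30). DN905_c1_g1 was at 23.4, 24.4 and 20.4 FPKM and at 11.1, 9.74 and 9.38 FPKM, and was called down (log2 difference -1.10). The remaining unigene, DN93_c0_g1, was at 10.7, 5.08 and 9.13 FPKM and at 7.9, 9.85 and 10.2 FPKM. Its groups overlapped, its log2 difference was 0.19, and it became -0.09 without T2 line replicate 2. Among the 5 in the table, the members DN9981_c0_g1 and DN786_c0_g1 had the largest difference in either direction.

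Of 5 unigenes listed for nitrogen metabolism, 4 were in the table, with 2 called up and 2 called down. DN12846_c0_g1 was at 4.48, 6.32 and 3.28 FPKM in the T2 line and at 13.4, 14.0 and 14.6 FPKM in the T2Plus line (log2 difference 1.43). DN1062_c0_g2 was at 391, 525 and 402 FPKM and at 191, 215 and 233 FPKM (log2 difference -1.03), which made it, with DN1749_c0_g1, one of a pair of abundant falling unigenes in a list whose rising unigenes were weakly expressed in the T2 line. The call of DN1062_c0_g2 lay next to the 2-fold limit and was lost without T2 line replicate 2 (-0.90) and without T2Plus line replicate 1 (-0.96). DN1749_c0_g1 was 1.46, 1.35 and 1.4 times as high as DN1062_c0_g2 in the T2 line and 1.15, 1.04 and 1.02 times as high in the T2Plus line, so the pair was nearly level there. Both also stood in the lists for alanine, aspartate and glutamate metabolism and for arginine biosynthesis.

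Of 10 unigenes listed for the response to phosphate starvation, 5 were in the table. All 5 were called down, in a list that the study drew from its calls on these samples. DN3805_c0_g1 was the most abundant, at 173, 214 and 159 FPKM in the T2 line and at 23.5, 28.3 and 33.8 FPKM in the T2Plus line (log2 difference -2.64). DN8532_c0_g1 was at 31.2, 19.5 and 30.3 FPKM and at 5.87, 5.56 and 7.05 FPKM (log2 difference -1.94). DN18727_c0_g1 was at 33.6, 30.3 and 39.6 FPKM and at 12.8, 15.0 and 15.4 FPKM (log2 difference -1.20). None of these overlapped between the lines. DN9452_c0_g1, at 34.6, 23.6 and 34.6 FPKM and at 10.5, 8.9 and 9.0 FPKM (log2 difference -1.59), was also the one unigene of the 5 listed for phosphate ion transport that was in the table. DN1882_c0_g1 had the largest log2 fall of the 5 in the table.

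The 4 lists together gave 14 unigenes tested, 4 called up and 9 called down, where 7.22% and 6.30% of all unigenes tested were called. Their median log2 difference was -1.15, beside 0.10 over all unigenes tested. Nothing is read from these contrasts, because the study drew the lists from its calls on the same samples. With the 5 members left out, 9 remained, of which 2 were up and 6 were down, with a median of -1.10. Without T2Plus line replicate 2, and likewise without T2Plus line replicate 3, the 4 calls up became 2, as DN25443_c0_g1 and DN12846_c0_g1 no longer passed. The wider lists gave 5 up, 5 down and 2 not called for inorganic anion transport (12 tested of 19 listed). Alanine, aspartate and glutamate metabolism gave 0 up and 4 down (5 tested of 10 listed), and arginine biosynthesis gave 0 up and 4 down (4 tested of 6 listed). The listed unigenes outside the table were not analysed here.

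**Figure D5:**
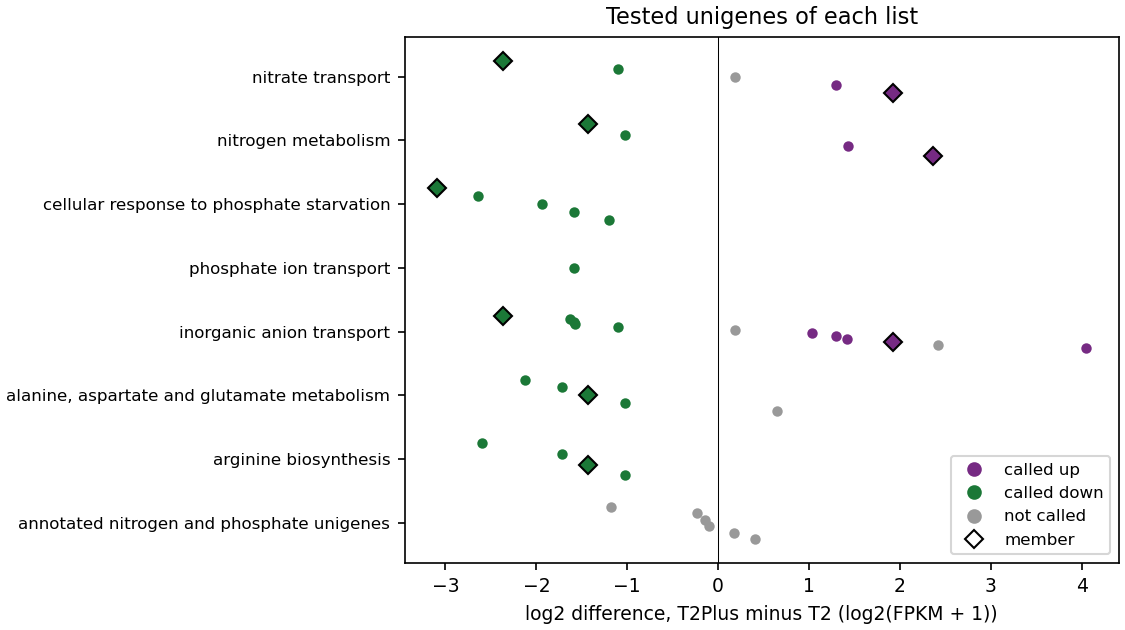
The log2 difference (T2Plus line minus T2 line, on log2(FPKM + 1)) of every tested unigene in each list, one row per list, with diamonds for the 5 members and colours for the call. The 5 phosphate starvation unigenes lie between -3.09 and -1.20, the nitrate transport unigenes lie on both sides of 0, and the 6 unigenes chosen by annotation are all grey.

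Unigenes chosen by their annotation could also be tested. None of those in the table stood in the study's 7 lists, which held unigenes that it had called. A lack of calls among them may thus follow in part from how they were chosen. Of 12 unigenes whose gene ontology terms or protein name refer to nitrogen or phosphate, 7 were in the table and 6 could be tested. None was called (limma, 0 up and 0 down, and 0 with an unadjusted p under 0.05), with a median log2 difference of -0.12 and adjusted p-values from 0.188 to 0.88. Over all unigenes tested 13.5% were called, so 0 calls among 6 is near that share and is not read as a result. DN11444_c0_g1, annotated as PHR1-LIKE 2, of the family of transcription factors that act in phosphate starvation in Arabidopsis, was at 25.6, 35.4 and 22.5 FPKM in the T2 line and at 25.8, 22.5 and 25.7 FPKM in the T2Plus line. The lines overlapped. DN18485_c0_g3, annotated as the transcription factor MYB62, was at 5.44, 5.34 and 6.52 FPKM and at 6.72, 7.91 and 5.33 FPKM, again with overlap.

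DN40868_c0_g1, annotated as the phosphatidate phosphatase PAH1, an enzyme of lipid metabolism, had the largest log2 difference of these, -1.18 ± 0.52 (SE). It was at 3.11, 3.46 and 3.5 FPKM in the T2 line and at 2.42, 0 and 1.08 FPKM in the T2Plus line. The samples did not overlap, as in 36.0% of all unigenes tested, but the difference did not pass the test (limma, adjusted p = 0.188). DN48190_c0_g1, a regulatory gamma subunit of an SNF1-related protein kinase whose terms include nitrate assimilation, was at 111, 145 and 115 FPKM and at 100, 105 and 108 FPKM, a log2 difference of -0.23 ± 0.12 (SE), without overlap and not called. The 2 unigenes annotated as Nudix hydrolase 9, whose terms include the response to ammonium, differed by -0.10 and 0.41 on the log2 scale, and both overlapped between the lines. DN48145_c0_g1, annotated as a probable inactive purple acid phosphatase, was at 1.62 FPKM in T2Plus line replicate 1, was listed at 0 elsewhere, and could not be tested. A test that is not passed with 3 samples a line does not show that these levels were alike.

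The unigenes whose pattern over the 6 samples was most like each of the 5 were found by Pearson's r of log2(FPKM + 1) over 12002 unigenes, those of the unigenes tested whose mean was 5 FPKM or more. The 6 points fall into the lines, so r mostly follows the difference between them, and it is given as a description. For DN9981_c0_g1 these were DN25175_c0_g1 (r = 0.9992) and DN2252_c0_g1 (r = 0.999), the first at 4.12, 3.22 and 4.33 FPKM in the T2 line and 8.5, 8.64 and 8.43 FPKM in the T2Plus line. For DN18363_c0_g1 they were DN10029_c0_g1 (r = 0.9978) and DN50246_c0_g1 (r = 0.9972). Within the T2 line, all 4 were lowest in replicate 2, which a choice by r over the same samples favours.

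For DN786_c0_g1 the closest were DN23603_c0_g1 (r = 0.9977) and DN9854_c1_g1 (r = 0.9976), the second at 27.9, 35.4 and 26.1 FPKM in the T2 line and 8.25, 5.68 and 6.06 FPKM in the T2Plus line. For DN1749_c0_g1 they were DN12811_c0_g1 (r = 0.9999) and DN2409_c5_g1 (r = 0.9998), the second more abundant still, at 962, 1370 and 980 FPKM and at 243, 244 and 270 FPKM. Each of these 4 was highest in T2 line replicate 2 and lower throughout the T2Plus line, which the choice by r likewise favours. For DN1882_c0_g1 they were DN13317_c0_g1 (r = 0.9997), at 19.2, 25.7 and 18.6 FPKM and at 1.31, 1.03 and 1.69 FPKM, and DN7308_c0_g1 (r = 0.9997). An r of at least 0.99 was shared with 62 unigenes by DN9981_c0_g1, 35 by DN786_c0_g1, 35 by DN18363_c0_g1, 259 by DN1749_c0_g1 and 255 by DN1882_c0_g1. The sources used here give none of the companions named a protein name.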

How the data were processed

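Per the submitters' processing notes, Trimmomatic 0.36 trimmed the reads and FastQC 0.11.5 checked their quality. The authors assembled the reads de novo with Trinity and deposited TMM-scaled FPKM values of single isoforms, estimated by RSEM. The sources used here name neither the aligner nor the versions of Trinity and RSEM, and it is not settled whether RSEM's FPKM or TPM column was taken. The authors' DESeq counts were not used. The expression table has 65535 isoforms, a part of the assembly. FPKM holds no read totals, and the clean reads that the study lists for each library, with T2 line replicate 2 the deepest, were not used in the analysis. Relative depth was read from weakly expressed isoforms, as the most frequent ratio of their values to those in T2 line replicate 1. This ratio, taken as the relative value of 1 fragment, was 0.737 in T2 line replicate 2 and 0.94 to 1.13 in the others.

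Isoforms were summed per unigene, and those reaching 1 FPKM in 3 or more of 6 samples were tested with limma 3.58.1 (R 4.3.3) with an intensity trend, on values of log2(FPKM + 1), and Benjamini-Hochberg adjustment over 28536 unigenes. Calls needed an adjusted p of 0.05 or less and a 2-fold change. The code was tested on simulated data. Python 3.11.15, numpy 2.4.6, pandas 2.3.3, scipy 1.17.1 and matplotlib 3.10.9 were used. The lists were the study's 7 lists for nutrient transport and nitrogen metabolism, unigenes annotated with nitrogen or phosphate by gene ontology term or name, chloroplast proteins, and best matches outside green plants. The unigenes named are the 5 members, unigenes sharing a Trinity cluster number with them, the 4 lists closest to them, the annotated unigenes, and the 2 most alike to each member. Members and lists were chosen with earlier results of these data known. The alternatives were pseudocounts of 0.1 and 0.5, no filter, a filter on a mean of 5 FPKM, only the highest isoform, rescaling to a sum of 1000000, quantile normalization, no trend, a replicate block, each sample left out, and the adjusted p alone.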

Additional observations from a re-analysis of the deposited data

How the results depend on the processing

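The 5 unigenes kept their direction under all 11 alternatives run on each, with log2 differences of 1.7 to 2.1 for DN9981_c0_g1, -2.72 to -2.2 for DN786_c0_g1, 2.02 to 2.69 for DN18363_c0_g1, -1.49 to -1.08 for DN1749_c0_g1 and -3.18 to -2.94 for DN1882_c0_g1. The value -1.08 for DN1749_c0_g1 came from quantile normalization, a shift larger than its spread between replicates. The median log2 difference of all unigenes tested was 0.1, and rescaling to a sum of 1000000 moved it to 0.227. Without a filter, which tested 49574 unigenes, 1073 were called up and 1142 down. With a mean of at least 5 FPKM as the only filter, which tested 14941, 753 were up and 1050 down. With a sample left out, 1463 to 1947 were up and 1270 to 1628 down. In the 4 lists, 2 to 4 were up with a sample left out, the 2 being without T2Plus line replicate 2 or 3. The annotated unigenes gave 0 calls under all 16 alternatives.

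No pairing by replicate number was seen in the values. Deviations of samples with the same number correlated at 0.037, -0.033 and -0.066, and those of samples with differing numbers at -0.08 to 0.108. With 3 samples a line, this does not show that the samples were unpaired. With the replicate number as a block, 1169 unigenes were called up and 1146 down, and DN25443_c0_g1 was not called (adjusted p = 0.0618 by limma). DN1062_c0_g2 was not called after rescaling (-0.90) or quantile normalization (-0.71). The values hold no read counts per unigene, so no counting interval is given for weak levels such as DN18363_c0_g1 in the T2 line.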
